A study of Mus musculus with 6 samples.

Results

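This account covers 10 genes that mark macrophages and their precursors or encode receptors for the Fc part of antibodies, out of 46983 genes in a table of read counts. The genes were taken by symbol, and each symbol matched 1 row: Fcgr1, Fcgr2b, Fcgr3, Fcer1g, Cd68, Adgre1, Lyz2, Cd14, Mrc1 and Msr1. RNA came from bone marrow leukemia cells of mice of 2 genotypes, with 3 untreated libraries from Alox5-/- and 3 from wild-type (WT) cells, all on the C57BL/6J background. Cells of both groups carried the MLL-AF9 fusion, a driver of human acute myeloid leukemia, delivered by retrovirus into Lin-Sca-1+c-Kit+ (LSK) marrow progenitors of the donor. GFP+ cells then went into irradiated primary recipients, C57BL/6J mice in both groups. The gate of the final sort before RNA extraction and the age of the mice are not given in the labels. They call the libraries biological replicates without naming an animal, so a p-value reflects no more than the scatter among these 6 samples, which may be technical in part.

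Fc gamma receptors bind the constant part of IgG and let phagocytes sense antibody-coated particles. The activating receptors Fcgr1 (high affinity), Fcgr3 and Fcgr4 (lower affinity) signal through the gamma chain encoded by Fcer1g, which carries an activating motif (ITAM) for the kinase Syk. Fcgr2b carries an inhibitory motif (ITIM) of its own, recruits the phosphatase Inpp5d (SHIP1) and dampens the same signal. The other genes mark monocytes and macrophages at different stages, and leukemias driven by MLL-AF9 often have myelomonocytic features.

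All 4 Fc receptor genes among the 10 and Cd68 were higher in Alox5-/- cells, Adgre1 was lower, and the changes were small. Of the 10 genes, all of which passed the expression filter, 5 were called higher and 3 lower (edgeR adjusted p under 0.05), while Cd14 and Mrc1 were not called. Calls were common: they covered 53.8% of the 13705 genes tested, with 26.8% higher and 27.0% lower. The median log2 fold change was 0.19 over the 10 genes and 0.00 over all tested genes, and the median absolute change was 0.23 against 0.19. No called rise reached 1.5-fold, a size that 7.60% of tested genes passed in that direction, and of the called falls Msr1 alone did, against 3.94% of tested genes. The libraries of the genotypes did not overlap for 7 of the 10 genes, 5 above and 2 below WT, against 60.0% of tested genes in either direction. In bulk RNA, fewer cells of a type and less RNA per cell cannot be told apart.

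The libraries held 28985597 to 38695948 gene counts. Levels are in CPM, which are counts scaled to the size of the library with TMM factors, and errors are SD of 3 libraries. A gene with no count in a library may still be present at up to 3 counts there, or 0.0786 to 0.103 CPM, a limit that covers counting error only. Alox5, the targeted gene, fell to 64.2 ± 1.87 CPM in Alox5-/- from 105 ± 1.87 CPM in WT; the table counts the whole gene, the deleted stretch is not known from the labels, and the genotype is therefore checked only in part. Of the markers of the donor sort, Kit was abundant (136 ± 2.73 against 159.7 ± 3.09 CPM), while Ly6a, which encodes Sca-1, was low (0.763 ± 0.158 against 1.06 ± 0.169 CPM).

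**Figure D1:**
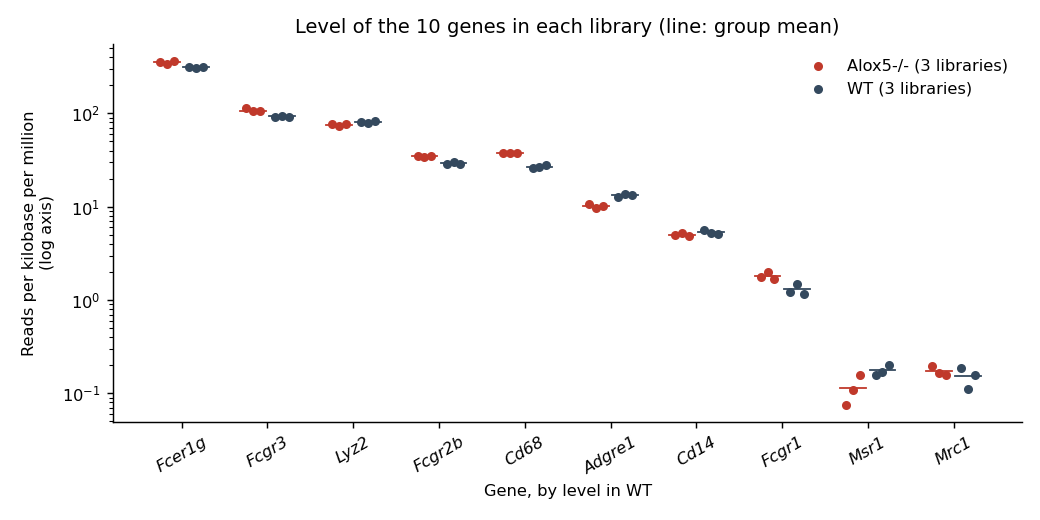
Level of each of the 10 genes in every library, as RPKM (CPM divided by exon length in kilobases) on a log axis. Points are libraries and short lines are group means; the genes run from Fcer1g (311 in WT) to Mrc1 (0.152 in WT).

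Per unit of exon length, the Fc receptor chain Fcer1g led and Msr1 and Mrc1 came last. Fcer1g stood at 311 ± 6.44 RPKM (CPM divided by exon length in kilobases) in WT and 354 ± 12.3 in Alox5-/-, a level above that of 99.3% of tested genes. In WT RPKM, Fcgr3 (92.7 ± 1.92) and Lyz2 (80.8 ± 1.52) followed, and then Fcgr2b (29.1 ± 0.738), Cd68 (26.9 ± 1.18) and Adgre1 (13.3 ± 0.595). Cd14 was at 5.34 ± 0.248 and Fcgr1 at 1.30 ± 0.176. Msr1 and Mrc1 were near the bottom, at 0.177 ± 0.0228 and 0.152 ± 0.0393 in WT, and their libraries overlapped in both genotypes, while no other neighbours in the order overlapped within a genotype. The order was the same in both genotypes except for 2 neighbouring pairs. Cd68 lay below Fcgr2b in all WT libraries (26.0 to 28.2 against 28.6 to 29.9) and above it in all Alox5-/- libraries (37.2 to 37.6 against 34.2 to 35.2), and Mrc1 and Msr1, which overlap, changed places. These levels divide by the merged exons of all annotated transcripts, so a gene with long minor transcripts, such as Fcgr2b with 7 transcripts over 5790 bases, can read low.

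Fcgr2b, Fcgr3 and Fcer1g lie in a cluster on the minus strand of chromosome 1 (mm10). Fcgr2b runs from 170958617 to 170976547, Fcgr3 from 171051174 to 171064935 and Fcer1g from 171229572 to 171234365, while Fcgr1 lies apart on chromosome 3 (96282909 to 96293969, minus strand). Cd68 is on chromosome 11 (69664213 to 69666153, minus strand). Promoter windows of these 5 genes are shown because they were the ones called higher. Each has 300 bases, from 250 before to 50 after a RefSeq start (GRCm38.p6, the assembly of mm10), 5′ to 3′ on the minus strand, where all 5 genes lie. The RefSeq starts of Fcgr2b, Fcgr3 and Fcer1g lie inside the gene spans given above, that of Fcer1g near the edge. The RefSeq start of Cd68 lies just outside its span. Capitals mark matches on either strand to GAGGAAG (the type bound by ETS factors such as PU.1), TTGCNNAA (C/EBP type) and TGANTCA (AP-1 type).
Fcgr1, chr3:96293920-96294219: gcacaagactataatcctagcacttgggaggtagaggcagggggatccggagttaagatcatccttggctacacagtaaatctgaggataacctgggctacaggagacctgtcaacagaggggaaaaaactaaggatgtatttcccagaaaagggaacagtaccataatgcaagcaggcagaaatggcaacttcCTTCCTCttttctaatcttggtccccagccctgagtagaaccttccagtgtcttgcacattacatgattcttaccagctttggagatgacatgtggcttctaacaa
Fcgr3, chr1:171059354-171059653: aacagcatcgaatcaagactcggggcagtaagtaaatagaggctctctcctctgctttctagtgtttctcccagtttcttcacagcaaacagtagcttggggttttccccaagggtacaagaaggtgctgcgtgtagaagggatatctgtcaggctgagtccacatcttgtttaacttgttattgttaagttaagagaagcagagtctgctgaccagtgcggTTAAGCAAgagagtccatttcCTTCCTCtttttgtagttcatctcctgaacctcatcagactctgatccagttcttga
Fcgr2b, chr1:170976022-170976321: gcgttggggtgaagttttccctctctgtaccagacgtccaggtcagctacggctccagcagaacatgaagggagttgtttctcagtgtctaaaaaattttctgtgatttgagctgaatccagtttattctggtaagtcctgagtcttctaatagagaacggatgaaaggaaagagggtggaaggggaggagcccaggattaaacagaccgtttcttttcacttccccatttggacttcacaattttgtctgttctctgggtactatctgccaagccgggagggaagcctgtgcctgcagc
Fcer1g, chr1:171234300-171234599: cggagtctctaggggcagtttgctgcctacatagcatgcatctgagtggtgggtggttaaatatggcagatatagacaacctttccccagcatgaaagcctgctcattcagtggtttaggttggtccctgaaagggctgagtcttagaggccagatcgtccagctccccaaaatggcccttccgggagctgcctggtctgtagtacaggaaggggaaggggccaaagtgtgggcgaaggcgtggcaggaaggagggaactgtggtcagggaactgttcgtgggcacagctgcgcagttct
Cd68, chr11:69666121-69666420: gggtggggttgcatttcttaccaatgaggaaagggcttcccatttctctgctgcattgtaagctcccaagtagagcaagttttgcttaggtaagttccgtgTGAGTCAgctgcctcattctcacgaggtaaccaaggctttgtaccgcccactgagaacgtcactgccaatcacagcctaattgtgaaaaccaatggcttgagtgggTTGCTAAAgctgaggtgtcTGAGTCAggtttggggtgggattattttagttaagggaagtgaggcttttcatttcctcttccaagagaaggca

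The windows of Fcgr1 and Fcgr3 each held the ETS-type motif once, on the opposite strand (CTTCCTC), with its first base at -56 and -7 from the start respectively. Fcgr3 also had a C/EBP-type match at -28, and the table holds another window for it, shifted by a few bases, with the same matches. The Cd68 window had AP-1-type matches at -149 and -24 and a C/EBP-type match at -43, and no motif overlapped another. None of the motifs occurred in the Fcgr2b and Fcer1g windows. Of the 10 genes, 7 had a window in the table, and Adgre1, Cd14 and Msr1 had none. The ETS-type motif occurred for 3 of those 7 genes, in 4 of their 8 windows, and in 13.6% of all 32851 windows. The third gene was Mrc1, which was not called, with matches at -168 and -36. The C/EBP type occurred for 2 genes, in 3 of the 8 windows, and in 10.8% of all. The AP-1 type occurred for 1 gene, in 1 of the 8 windows, and in 7.81% of all. A match is a description of the letters and not of binding.

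Every Alox5-/- library was above every WT library for each of the 4 Fc receptor genes. Groups were separated in the same direction for 29.7% of tested genes. Fcgr1, the high-affinity receptor, gave 4.62, 5.16 and 4.37 CPM in Alox5-/- replicates 1 to 3 and 3.18, 3.87 and 3.01 CPM in WT. It was the least abundant of the 4, from 95 to 151 counts per library, and its estimated change was the largest of the 4, 1.41-fold (edgeR log2 fold change 0.50 with SE 0.12, adjusted p = 0.00270). The lowest Alox5-/- library and the highest WT library were close, at 4.37 and 3.87 CPM.

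Fcgr3, the low-affinity activating receptor, gave 197, 182 and 181 CPM in Alox5-/- and 160.4, 165 and 158 CPM in WT. The groups did not overlap, with Alox5-/- replicate 1 highest, and the rise was 1.16-fold (edgeR log2 fold change 0.21 with SE 0.04, adjusted p = 1.88e-04). Fcer1g, the signalling chain shared by the activating receptors and by the IgE receptor, gave 314, 297 and 318 CPM in Alox5-/- and 272, 267 and 278 CPM in WT. It rose 1.14-fold (edgeR log2 fold change 0.19 with SE 0.03, adjusted p = 2.67e-04), again without overlap.

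Fcgr2b, the inhibitory receptor, rose as Fcgr1 and Fcgr3 did. It gave 201, 198 and 204 CPM in Alox5-/- and 166, 173 and 166 CPM in WT, a 1.19-fold rise (edgeR log2 fold change 0.25 with SE 0.03, adjusted p = 1.01e-05). Fcgr2b and Fcgr3 have near-identical stretches: 166 of the 1733 distinct 50-base words in Fcgr3 transcripts (9.58%) also occur in Fcgr2b transcripts. Reads that align to more than 1 place are tallied apart in the table and not by gene, so both values leave such stretches out and carry that uncertainty. Gm38204, on the opposite strand, overlaps 155 exon bases of Fcgr2b and had 22 counts over the 6 libraries, against 34543 for Fcgr2b.

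The balance of activating to inhibitory receptor RNA was compared as the ratio of counts inside each library, which needs no scaling. Counts were not divided by exon length, so the ratios compare genotypes and do not give the balance itself. Per unit of length, Fcgr3 was above Fcgr2b (92.7 against 29.1 RPKM in WT). Fcgr3 over Fcgr2b was 0.980, 0.918 and 0.890 in Alox5-/- and 0.967, 0.949 and 0.951 in WT. The groups overlapped, with a difference in mean log2 ratio of -0.04 that ranged from -0.08 to -0.01 when any library was left out (exact permutation test, two-sided, p = 0.400; 0.533 adjusted over 4 ratios). Fcgr1 over Fcgr2b was 0.0231, 0.0262 and 0.0215 against 0.0193, 0.0224 and 0.0182, also overlapping, with a difference of 0.24 on the log2 scale (exact permutation p = 0.200; 0.400 adjusted). Fcer1g over the sum of Fcgr1 and Fcgr3 differed by -0.03 (exact permutation p = 0.600; 0.600 adjusted), with log2 means of 0.70 ± 0.07 and 0.73 ± 0.06. With 3 libraries against 3 the smallest p is 0.1, so none of these ratios could pass 0.05, and equal ratios are not shown.

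**Figure D2:**
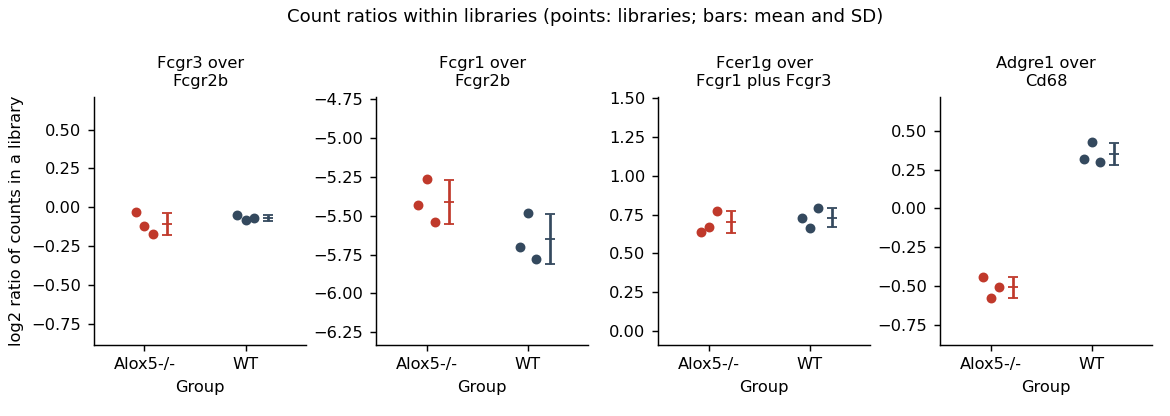
Log2 ratio of counts within each library for 4 pairs, with points for libraries and bars for the mean and SD of 3 libraries per genotype. The vertical axes have equal length and different origins; the groups overlap in the first 3 panels and are apart for Adgre1 over Cd68 (means -0.51 and 0.35).

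The macrophage markers Cd68 and Adgre1 moved in opposite directions. Cd68 encodes macrosialin, a heavily glycosylated protein of the late endosomes and lysosomes of phagocytes. It gave 46.7, 47.2 and 46.8 CPM in Alox5-/- and 32.7, 33.2 and 35.5 CPM in WT. All Alox5-/- libraries were above all WT libraries, 1.39-fold on average (edgeR log2 fold change 0.47 with SE 0.05, adjusted p = 6.61e-07).

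Adgre1 encodes F4/80, an adhesion G protein-coupled receptor of mature mouse macrophages, on chromosome 17 (57358691 to 57483527, plus strand). It gave 34.3, 31.5 and 32.9 CPM in Alox5-/- and 40.9, 44.7 and 43.6 CPM in WT. All Alox5-/- libraries were below all WT libraries, a 1.31-fold fall (edgeR log2 fold change -0.39 with SE 0.05, adjusted p = 1.23e-05), and groups were separated that way for 30.2% of tested genes. The ratio of Adgre1 to Cd68 was 0.735, 0.668 and 0.703 in Alox5-/- and 1.25, 1.35 and 1.23 in WT. Cd68 had more counts than Adgre1 in every Alox5-/- library and fewer in every WT library. Those counts were not divided by exon length (1257 bases for Cd68 and 3238 for Adgre1). Per unit of length, Cd68 was above Adgre1 in every library of both genotypes. The RPKM were 26.0 to 28.2 against 12.6 to 13.8 in WT and 37.2 to 37.6 against 9.74 to 10.6 in Alox5-/-. The difference in mean log2 count ratio was -0.86 (exact permutation p = 0.1, the smallest possible; 0.400 adjusted over 4 ratios).

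**Figure D3:**
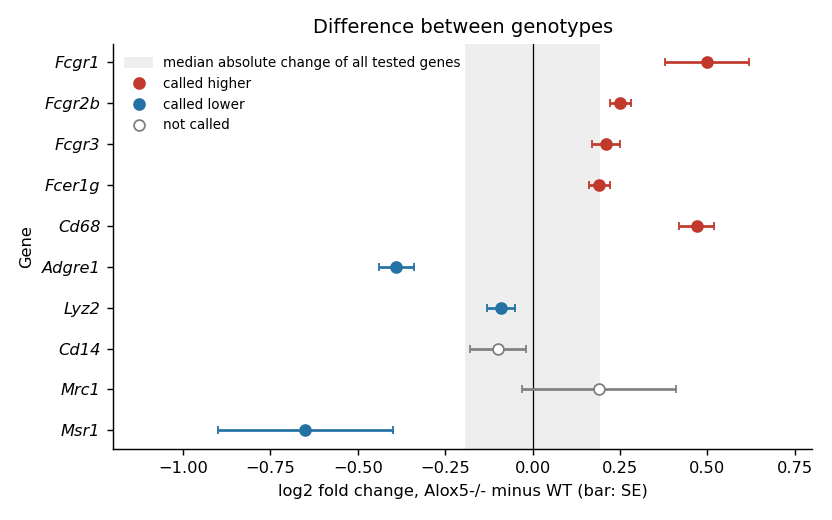
Log2 fold change (Alox5-/- minus WT) of each gene with its standard error; filled points passed an edgeR adjusted p of 0.05. The grey band spans the median absolute change of all tested genes (0.19 either way); Fcgr1, Cd68, Adgre1 and Msr1 lie farthest outside it.

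Lyz2, Cd14, Mrc1 and Msr1 showed no change that held under every setting tried. Lyz2, lysozyme M, a granule and secreted enzyme of granulocytes, monocytes and macrophages, gave 101, 96.1 and 102 CPM in Alox5-/- and 106, 104 and 108 CPM in WT. The groups did not overlap, with 102 against 104 CPM as the nearest libraries, and the fall was 1.07-fold (edgeR log2 fold change -0.09 with SE 0.04, adjusted p = 0.0362). The call was lost without Alox5-/- replicate 1, 2 or 3 (adjusted p = 0.0531, 0.201 and 0.0561) and without WT replicate 1 or 3 (0.0818 and 0.118), as well as with DESeq2 (0.0852). Lyz2 shares 195 of its 1267 distinct 50-base words (15.4%) with its neighbour and paralog Lyz1, which had 2 counts in all.

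Cd14, the co-receptor that hands bacterial lipopolysaccharide (LPS) to Tlr4, gave 8.54, 8.96 and 8.34 CPM in Alox5-/- and 9.74, 9.09 and 8.93 CPM in WT. The groups overlapped, and it was not called (edgeR log2 fold change -0.10 with SE 0.08, adjusted p = 0.275). Mrc1, the mannose receptor CD206, gave 1.25, 1.06 and 1.01 CPM against 1.21, 0.707 and 0.996 CPM. It rested on 21 to 39 counts per library and was not called (edgeR log2 fold change 0.19 with SE 0.22, adjusted p = 0.493). Cd14 is typical of monocytes and macrophages, and Mrc1 of tissue macrophages.

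Msr1, the class A scavenger receptor, had 15, 20 and 30 counts in Alox5-/- and 30, 32 and 49 counts in WT, or 0.725 ± 0.266 and 1.12 ± 0.145 CPM. Alox5-/- replicate 3, at 1.01 CPM, lay above the lowest WT library, so the groups overlapped. The fall was 1.57-fold with a wide error (edgeR log2 fold change -0.65 with SE 0.25, adjusted p = 0.0420). Without Alox5-/- replicate 1 it was -0.42 on the log2 scale (adjusted p = 0.196), and it also missed the threshold when Alox5-/- replicate 2 (0.0886), or replicate 2 (0.0623) or 3 (0.165) of WT, was left out, and with DESeq2 (0.175).

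Markers of tissue macrophages ranged from absent to well expressed in these sorted cells. Adgre1 (above), Slc40a1 (17.1 against 27.1 CPM), Mpeg1, a pore-forming protein of phagocytes (20.8 against 22.5 CPM), and Vcam1 were expressed. C1qa, C1qb and C1qc, the complement subunits of tissue macrophages, had 1, 2 and 2 counts over all 6 libraries, and Vsig4 and Clec4f, markers of Kupffer cells, had 0. Csf1r, the receptor for the macrophage growth factor CSF-1, was low (4.03 ± 0.458 against 4.29 ± 0.411 CPM) and not called (edgeR log2 fold change -0.10 with SE 0.12, adjusted p = 0.513). Monocyte and myeloid progenitor genes were abundant: Ly6c2 was 1406 against 1554 CPM, Ccr2 was 370.0 against 291 CPM, and Itgam, which encodes CD11b, was 91.9 against 107 CPM. These genes were chosen for their role after their values were seen.

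Of 17 tested macrophage and monocyte genes outside the 10, 7 rose, 6 fell and 4 did not pass the test (median log2 fold change 0.07). Over all tested genes, 26.8% rose and 27.0% fell. Vcam1, an adhesion molecule of macrophages and endothelium, rose 4.12-fold, from 4.58 ± 0.264 to 18.8 ± 1.27 CPM. Itgax, which encodes CD11c, rose 2.08-fold and Cd9, a tetraspanin, 1.68-fold, while the iron exporter Slc40a1 fell 1.59-fold. The largest fall of the list was that of Cx3cr1, 3.49-fold, at low levels (0.154 ± 0.0465 against 0.550 ± 0.0722 CPM). The summed level of the list was 2377 to 2429.6 CPM in Alox5-/- and 2426 to 2473 CPM in WT, and 13 of the 30 listed genes did not pass the filter.

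Other Fc receptors were mostly absent or low. Of 14, 5 passed the filter, and 4 had no count in any library: Fcer1a, Fcmr, Fcamr and Pigr. Fcgr4, the activating receptor whose gene lies between Fcgr2b and Fcgr3, gave 16.3, 13.4 and 14.5 CPM in Alox5-/- and 15.9, 15.8 and 16.6 CPM in WT. It was not called (edgeR log2 fold change -0.13 with SE 0.07, adjusted p = 0.155), and its difference from the other Fc gamma receptors was not tested. Fcgrt, the neonatal Fc receptor that recycles IgG, rose from 1.52 ± 0.285 to 3.61 ± 0.0952 CPM (2.34-fold), and Ms4a2, the beta chain of the IgE receptor, rose 1.29-fold. The Ms4a2 call did not hold when replicate 3 of either genotype was left out (highest adjusted p = 0.0901). Trim21, a cytosolic antibody receptor, fell 1.30-fold, and Fcrl1, a receptor of B cells, fell from 0.808 ± 0.204 to 0.200 ± 0.00654 CPM.

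The rises of Fcgr2b, Fcgr3 and Fcer1g were set beside the values of their chromosomal neighbours. Within 200 kb of Fcgr2b, Fcgr3 or Fcer1g, 24 other genes were tested, of which 5 rose, 1 fell and 18 did not pass the test (median log2 fold change 0.04). Over all tested genes 26.8% rose and 27.0% fell, and whether the neighbours differ from that was not tested. The nearest tested genes of Fcer1g, Apoa2 (log2 fold change -0.12) and Tomm40l (-0.06), were not called. Atf6, a sensor of unfolded proteins, rose by 0.60, Pcp4l1 by 0.84 and Pvrl4, a nectin, by 1.56 on the log2 scale, and Ufc1, a conjugating enzyme of the UFM1 system, fell by 0.32.

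**Figure D4:**
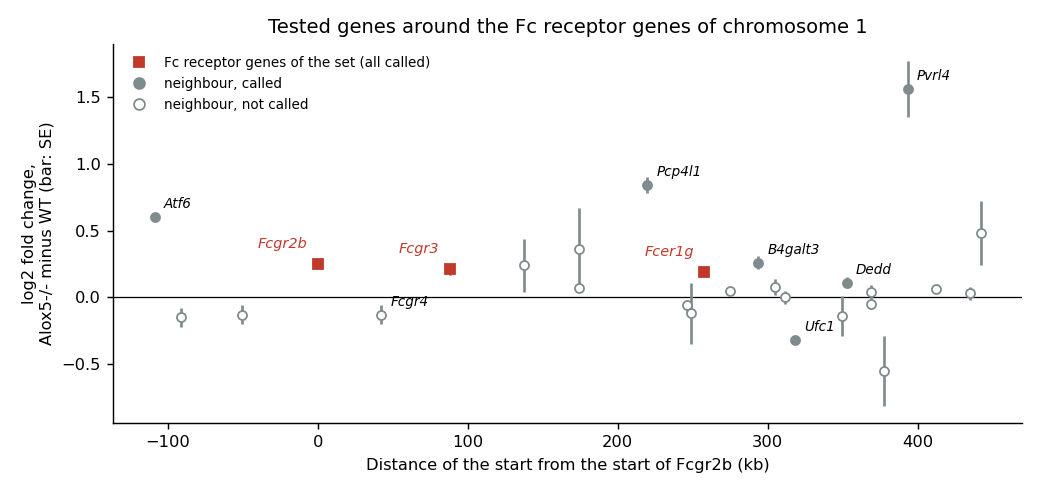
Log2 fold change (Alox5-/- minus WT, bars are standard errors) of tested genes against the distance of their start from that of Fcgr2b on chromosome 1, in kb. Squares are Fcgr2b, Fcgr3 and Fcer1g (0.25, 0.21 and 0.19); open circles are the 18 neighbours not called.

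Signalling genes downstream of ITAM and ITIM receptors moved both ways. Of 29 tested, 8 rose, 7 fell and 14 did not pass the test (median log2 fold change -0.02), shares close to the 26.8% higher and 27.0% lower of all tested genes. Btk, a kinase below Fc and B-cell receptors, fell from 455 ± 11.6 to 255 ± 4.52 CPM (edgeR log2 fold change -0.84 with SE 0.03, adjusted p = 3.01e-11). The adaptors Gab2 and Lat2 and the kinase Fyn rose by 0.69, 0.29 and 0.80 on the log2 scale. Other genes of the pathway were chosen for their role after the values were seen. The genes above were named by smallest p, so sizes cannot be compared between these choices. Syk, the kinase that docks on the ITAM, fell by 0.16 on the log2 scale, Inpp5d by 0.20 and Tyrobp, another ITAM adaptor of myeloid cells, by 0.09 (edgeR adjusted p = 0.0441). Lyn, a kinase that phosphorylates both motifs, rose by 0.14.

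The LPS pathway around Cd14 was also mixed, with 6 of 20 tested genes higher, 7 lower and 7 not called (median log2 fold change -0.05). Shares over all tested genes were 26.8% higher and 27.0% lower. Tlr4 itself gave 102, 104 and 108 CPM in Alox5-/- and 60.5, 61.6 and 58.9 CPM in WT, a 1.74-fold rise (edgeR log2 fold change 0.80 with SE 0.04, adjusted p = 2.27e-10). Its partner Ly96 (MD-2) was low, at 2.63 ± 0.496 and 3.11 ± 0.270 CPM, and not called (edgeR adjusted p = 0.178). The adaptor Ticam2, which serves the endosomal arm of Tlr4 signalling, rose 2.73-fold and the kinase Irak2 1.66-fold. The adaptor Tirap, which serves the arm at the cell surface, fell 1.35-fold. The adaptors Ticam1 and Myd88 were also called lower (log2 fold change -0.29 and -0.22). A shift between the arms was not tested.

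Other scavenger and phagocytic receptors were grouped with Msr1 and Mrc1 by function, and 12 of 24 passed the filter. Of these 12, 6 were higher, 4 lower and 2 not called (median log2 fold change 0.05). Shares over all tested genes were 26.8% higher and 27.0% lower. Lrp1, which takes up lipoproteins and apoptotic cells, rose 1.77-fold, Scarb2, a receptor of lysosomal membranes, 1.58-fold and Clec10a, a galactose-binding lectin of macrophages, 1.45-fold. Olr1, a receptor for oxidised LDL, fell 1.28-fold. The largest fall of the list was that of Pla2r1, 4.72-fold, at low levels (0.277 ± 0.0103 against 1.34 ± 0.275 CPM). Marco, Cd5l and Timd4, receptors of tissue macrophages, had no count in any library.

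Cd68 belongs to the lysosome, and 18 lysosome and lysozyme genes were listed with earlier results of these data known. Of the 13 tested, 11 rose, none fell and 2 did not pass the test (median log2 fold change 0.27). Over all tested genes, 26.8% rose and 27.0% fell. Grn, which encodes progranulin, gave 601, 609 and 614 CPM in Alox5-/- and 372, 367 and 406 CPM in WT, 1.59-fold higher (edgeR log2 fold change 0.67 with SE 0.04, adjusted p = 1.53e-09). The cathepsin proteases Ctsl, Ctsb and Ctsd rose 1.77-, 1.29- and 1.30-fold. Lamp1 and Lamp2, the relatives of Cd68 in the lysosomal membrane, rose by 0.10 and 0.17 on the log2 scale, and both were chosen for their role after their values were seen. The summed level of the list was 4987 to 5143 CPM in Alox5-/- and 4082 to 4215 CPM in WT.

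**Figure D5:**
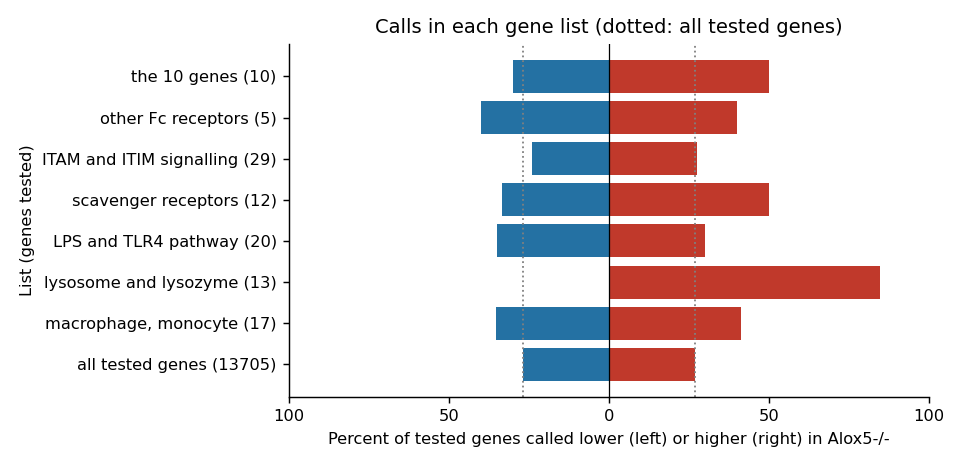
Percent of the tested genes of each list called lower (left) or higher (right) in Alox5-/- cells, with the number tested in parentheses and dotted lines at the values for all tested genes (27.0% lower, 26.8% higher). The lysosome list has 11 of 13 genes higher and none lower, and the other lists have calls on both sides. The lists were chosen with earlier results of these data known.

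Markers of other cell types, some of which carry Fc receptors, were checked beside these results. Of 13 tested neutrophil-lineage genes, 8 fell, 3 rose and 2 did not pass the test (median log2 fold change -0.70). Over all tested genes, 27.0% fell and 26.8% rose. Among the falls in the list, chosen after their values were seen, were Mpo, the peroxidase of primary granules (65.6 against 197 CPM), and S100a8, which binds calcium in mature neutrophils (8.04 against 25.3 CPM). The 3 rises were those of Lcn2 (20.7 against 10.2 CPM), Ly6g (6.06 against 4.22 CPM) and Ctsg. The summed level of the list was 3777 to 3901 CPM in Alox5-/- and 3457 to 3759 CPM in WT, most of it from Ctsg, which rose (2712 against 2229 CPM), with Prtn3 next (591 against 625 CPM, not called). Of the B-cell markers, Ms4a1 had 1 count over the 6 libraries, and Ighm was 52.8 ± 3.51 against 49.4 ± 1.48 CPM. The T-cell and NK-cell genes Cd3e, Cd3g, Ncr1 and Gzma were at 0, and Lck (18.2 against 14.4 CPM) and Nkg7 (17.4 against 11.7 CPM) rose, with list sums of 33.5 to 37.4 and 23.3 to 29.4 CPM. Of the mast cell and basophil genes, Fcer1a, Prss34, Tpsb2 and Cma1 were at 0. Hdc fell (35.1 against 96.0 CPM), as did Cpa3 (1.90 against 8.78 CPM), while Ms4a2 (above) rose. Gata2 (50.5 against 47.5 CPM) and Mcpt8 were expressed and not called. The list sums were 112 to 117 and 175 to 187 CPM. Dendritic-cell sums were 70.4 to 79.5 and 54.9 to 61.0 CPM, led by Bst2 and Flt3, which rose, with Siglech at 1 count and Xcr1 at 15. Erythroid sums, nearly all from Tfrc, were 286 to 311 and 560.0 to 618 CPM, and stromal and endothelial sums, mostly from Pecam1, were 207 to 212 and 184 to 187 CPM. The part of other cells in the changes of Fcgr2b, Fcgr3, Fcer1g or Lyz2, which several of these types also express, was not tested.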

How the data were processed

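Poly-A RNA of sorted cells was amplified with the SMARTer kit, per the labels. The authors deposited raw read counts per gene, from HTSeq on mm10 (submitters' processing notes, where DESeq2 is listed too). For aligner, versions, annotation release and strand setting: not given in the sources used here, so reads of overlapping antisense genes cannot be separated. The 5 summary rows that name no gene (reads aligned to several places made up 24.4 to 24.8% of all reads) entered neither library sizes nor tests.

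From the counts, all genes were fitted in edgeR 4.0.16 (R 4.3.3) after TMM scaling and its standard filter on low counts. Genotypes were compared by quasi-likelihood F-tests, with p-values adjusted over 13705 genes (Benjamini-Hochberg, threshold 0.05), and the SE follows from coefficient and F statistic. The scripts were tested on simulated counts. Ratios used a pseudocount of 0.5 counts and exact two-sided permutation tests (SciPy 1.17.1), adjusted over 4 ratios. Positions, exon lengths and shared 50-base words came from GENCODE vM21 (98.95% of identifiers found). A second row named Itgam, which GENCODE calls Gm49368, was left out of the lists. Promoters came from RefSeq (GRCm38.p6). Protein sequences were not used here.

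The genes, lists, tests and alternatives were chosen with earlier results of these data known. Named were the 10 genes, Alox5, up to 4 called genes per list by smallest p, the 2 most abundant genes of each list of another cell type, and neighbours within 200 kb on chromosome 1. Any other gene was picked for its role once values were in view. Alternatives were DESeq2 1.42.0, limma-voom (limma 3.58.1), other scalings and filters, a robust fit, a replicate block, each library left out, and a 1.5-fold minimum.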

Additional observations from a re-analysis of the deposited data

How the results depend on the processing

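The count of genes called higher was 5 as reported, 5 with any library left out, 4 with the stricter filter and 0 with a 1.5-fold minimum. The count called lower was 3, and 1 to 2 with a library left out (1 without replicate 1 or 2 of Alox5-/- or replicate 3 of WT); it was 1 with DESeq2, upper-quartile scaling, library totals only, the stricter filter, or the 1.5-fold minimum. Adgre1, Cd68, Fcgr2b, Fcgr3 and Fcer1g kept direction and call under the 15 alternatives without a fold minimum, and Fcgr1 under the 14 of these in which it was tested (highest adjusted p = 0.0202). Fcgr1, Mrc1 and Msr1 did not pass the stricter filter of 5 CPM in 3 libraries. Msr1 was no longer called with DESeq2 (-0.64), upper-quartile scaling (-0.62) or library totals only (-0.61), and ranged from -0.96 to -0.42 with a library left out (adjusted p 0.00957 to 0.196 over alternatives). Lyz2 was no longer called with DESeq2 (-0.09), upper-quartile scaling (-0.07), library totals only (-0.05), no filter (-0.08) or the stricter filter (-0.08), and ranged from -0.11 to -0.06 with a library left out (adjusted p 0.0215 to 0.267). The cause was not tested. Library totals only moved the median of all genes by 0.04. Over the 6 lists, with 5, 29, 12, 20, 13 and 17 genes tested as reported, 40 were called higher and 26 lower. The counts were 33 to 41 and 23 to 26 with a library left out, and 15 and 5 with a 1.5-fold minimum. Of all tested genes, 53.8% were called in either direction as reported, 39.6% with DESeq2 and 47.3 to 52.1% with a library left out. The share was 53.1% with upper-quartile scaling, 53.2% with library totals only, 60.4% with the stricter filter and 11.5% with the 1.5-fold minimum. Whether the counts differ from these shares was not tested. No ratio changed sign.

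The replicate numbers did not pair the libraries: same-numbered libraries had correlations of deviations of -0.0561, -0.159 and -0.0375, and no library correlated best with its own number. With the replicate block, 5 genes were called higher and 3 lower, and 7029 genes in all against 7379. Depth limits Mrc1 and Msr1, at 15 to 49 counts per library.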
